A study of Mus musculus with 7 samples.

Results

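The duodenal levels of 10 genes of the intestinal crypt were compared between mice made to lack PPARα in the intestinal epithelium and their controls. The genes were Lgr5, Olfm4, Ascl2, Smoc2, Axin2, Sox9, Prom1, Rgmb, Rnf43 and Znrf3, chosen by symbol as markers of crypt base stem cells or as targets of Wnt signalling. All 10 were among the 14795 genes in the deposited table. RNA-seq was done on 7 duodena of strain C57BL/6, with 3 from Ppara lox/lox animals and 4 from Ppara I-KO animals. The I-KO mice carry the same floxed Ppara alleles and Villin-Cre, a recombinase driven by the promoter of Vil1 and active in the epithelium, while the controls are lox/lox littermates without Cre. All mice were starved for 6 h and refed for 6 h before sacrifice. The methods of the study describe them as males on high-fat diet, the sample labels give no diet, and no age is given for these duodena. The tissue is a whole duodenum, so cells in which Cre is not active, such as fibroblasts, muscle and immune cells, contribute to each value.

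The small intestinal epithelium is renewed from stem cells at the base of the crypts, which divide under the influence of Wnt ligands from Paneth cells and from the underlying stroma. Wnt ligands bind Frizzled and LRP receptors, which stabilises β-catenin, and β-catenin then activates target genes together with TCF/LEF factors. R-spondins bind LGR receptors and remove the ubiquitin ligases RNF43 and ZNRF3, which otherwise clear Frizzled from the cell surface, so several targets of the pathway also regulate it.

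Values are in CPM, read counts scaled to a common library size, as the authors normalized them. Between 20741309 and 25888320 reads per library lie behind them, as read from the spacing of the low values, and the rarest of the 10 genes, Ascl2, had 67 reads in its lowest library. Fold changes are differences of mean log2(CPM + 1), Ppara I-KO minus lox/lox, tested two-sided with limma over 13399 genes with Benjamini-Hochberg adjustment. This scale understates the change of genes with low values. For Ppara itself the controls ranged from 49.3 to 63.2 CPM and the I-KO libraries from 33 to 69.9 CPM. The highest, I-KO replicate 4, was above every control. A gene total also counts any exons that were not floxed and cells in which Cre is not active. It cannot show whether the deletion was complete in a library, and this was not tested. Me1, a PPARα target that encodes malic enzyme 1, had 29.7 to 42.5 CPM in lox/lox and 12.8 to 18 CPM in I-KO (adjusted p = 0.0456 from limma). It was the 1 of 11 PPARα targets tested that passed after adjustment, and this call was lost under some alternatives. Of the 11 targets, 10 were lower in I-KO, beside 6615 of 13399 of all genes tested. An unadjusted p of 0.05 by limma was passed by 6 of the 11, beside 4.74% of all genes tested. The list of targets was chosen with earlier results of these data known, so its counts are a description and no independent check. Epithelial markers were high in every library (Krt8 at 2693 or more CPM), as were the enterocyte genes Apoa4 and Apoa1.

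Between Ppara I-KO and lox/lox duodena, 0 of the 10 genes had an adjusted p under 0.05 by limma (smallest adjusted p = 0.932), where 0.0299% of all genes tested did. At an unadjusted p of 0.05 there was 1 gene, Lgr5, against 4.74% of all genes tested. In 0 of 10 genes were the groups without overlap, against 6.19% of all genes tested. Of the 10 genes, 5 had a higher and 5 a lower mean log2 level in I-KO. The median of their log2 fold changes was -0.0024, beside 0.0017 over all genes. The 95% confidence intervals reached a median of 0.30 on the log2 scale to either side, from 0.17 for Znrf3 to 0.87 for Olfm4. An estimate smaller than a gene's own half-width does not pass an unadjusted p of 0.05. A larger one need not pass after adjustment, as for Lgr5 at 0.40 (adjusted p = 0.932 from limma). True differences of the size of the half-width or larger could thus be missed with these numbers of mice. In whole tissue, fewer cells of a type and less RNA per cell cannot be told apart.

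Of the 10 genes, 6 have promoter sequences in the RefSeq table for GRCm38.p6, in 10 windows of 250 bases before to 50 bases after an annotated start. The TCF/LEF core CTTTGA was searched on both strands as a feature of Wnt targets that the choice of genes did not use, and was found in 1 of the 10 windows, at a second start of Prom1, against 16% of all 32851 windows. Its longer form CTTTGAT, which contains the core, was in 0 of 10 windows against 3.73% of all. The RBPJ core TGGGAA, chosen after the levels were known because Olfm4 is known as a Notch target, was found before the start of Olfm4 and at the first start of Prom1, against 25.6% of all windows. Both of these windows overlapped an annotated exon and lay inside the gene spans given below, so the RefSeq starts differ from the ends of those spans. The nuclear receptor half-site AGGTCA, also chosen afterwards, was in 0 of 10 windows against 16.3%. The matched sites are shown 5′ to 3′ in the sense of the gene, with the match in capitals. A match is no evidence of binding, and its absence says only that these letters are not in the window.
Olfm4, chr14:80000281-80000304, plus strand, TGGGAA on the gene's strand: ctgagactcTGGGAAgaagccagc
Prom1, chr5:44101838-44101861, minus strand, TGGGAA on the opposite strand: cgcaacaggTTCCCAgagtcctgg
Prom1 second start, chr5:44094746-44094769, minus strand, CTTTGA on the gene's strand: gggatggtaCTTTGAgtgaatgac

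The windows of Ascl2 and Axin2, both direct Wnt targets, held none of these motifs, and their 250 bases before the start overlapped no annotated exon. They are shown whole with each CG dinucleotide in capitals. These starts were among the richest in CG of the windows examined for the 10 genes, with 19 CG in Ascl2 and 24 in Axin2 beside a median of 6 over all windows. A start of Rgmb, which is not shown, was richer with 27 CG. The content of G and C was 67.6% in Ascl2 and 69.2% in Axin2, beside a median of 52.4%. At the start of Olfm4 there were 4 CG and 54% G and C.
Ascl2, chr7:142969265-142969514, minus strand: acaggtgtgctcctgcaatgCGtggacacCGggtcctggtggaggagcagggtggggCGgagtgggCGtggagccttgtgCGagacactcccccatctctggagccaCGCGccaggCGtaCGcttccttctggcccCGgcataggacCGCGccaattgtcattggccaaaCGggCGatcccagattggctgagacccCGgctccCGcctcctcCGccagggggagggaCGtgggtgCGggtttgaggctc
Axin2, chr11:108920099-108920348, plus strand: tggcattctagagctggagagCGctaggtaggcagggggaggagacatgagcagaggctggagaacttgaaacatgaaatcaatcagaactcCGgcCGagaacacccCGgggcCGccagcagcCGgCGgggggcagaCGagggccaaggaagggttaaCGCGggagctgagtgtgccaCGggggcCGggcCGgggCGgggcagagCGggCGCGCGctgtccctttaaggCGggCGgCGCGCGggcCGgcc

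Lgr5 encodes a receptor for R-spondins and marks the cycling stem cells at the crypt base. It lies on chromosome 10 of GRCm38 from 115450311 to 115587780 on the minus strand. The controls, replicates 1 to 3, had 4.94, 5.92 and 4.48 CPM, and the I-KO mice had 5.6, 8.29, 7.36 and 7.07 CPM in replicates 1 to 4. The I-KO libraries were the higher ones, with 3 of 4 above every control, and the groups overlapped because I-KO replicate 1 lay below lox/lox replicate 2. The means were 5.11 ± 0.735 CPM (SD, n = 3) and 7.08 ± 1.12 CPM (SD, n = 4), so that the I-KO mean was 138% of the lox/lox mean. The log2 fold change was 0.40 (standard error 0.13, 95% confidence interval 0.10 to 0.69), with an unadjusted p of 0.014 and an adjusted p of 0.932 from limma. An exact two-sided permutation test of this gene alone gave p = 0.0857, where the smallest p that the 35 assignments allow is 0.0286. Leaving out lox/lox replicate 3, the lowest library, gave an unadjusted p of 0.0597 from limma, and leaving out I-KO replicate 1 gave 0.00243. Between 100 and 211 reads stood behind each Lgr5 value, and counting error alone gave a coefficient of variation of 10% at the lowest of these.

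Olfm4, which encodes a secreted glycoprotein of crypt base cells, lies on chromosome 14 from 79984081 to 80023139. Its level was 139, 171 and 139 CPM in lox/lox and 114, 203, 73.9 and 273 CPM in I-KO replicates 1 to 4. Replicates 2 and 4 of the I-KO mice were above every control, and replicates 1 and 3 were below every control. The means of 150 ± 18.4 CPM (SD, n = 3) and 166 ± 89.7 CPM (SD, n = 4) differed by far less than this spread, with a log2 fold change of -0.02 (95% confidence interval -0.89 to 0.85, adjusted p = 0.997 from limma). The highest I-KO library was 3.7 times the lowest, against 1.23 times among the controls. The within-group SD of Olfm4, 0.66 on the log2 scale, was larger than that of 99.4% of all genes tested, and at 1396 or more reads per library counting error was 2.68% at most. With no I-KO replicate 3 the log2 fold change was 0.31, and with no I-KO replicate 4 it was -0.31. The lincRNA gene Gm6999 shares 153 exon bases with Olfm4 on the same strand, and how reads over these bases were counted is uncertain.

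Ascl2, a transcription factor that sets the stem cell programme under Wnt control, lies on chromosome 7 from 142966829 to 142969264. Its level was 3.6, 5.28 and 3.38 CPM in lox/lox and 4.17, 6.13, 3.55 and 5 CPM in I-KO. I-KO replicate 2 was the highest library and lox/lox replicate 3 the lowest, and 3 of the 4 I-KO values lay inside the range of the controls. The log2 fold change was 0.17 (standard error 0.18, unadjusted p = 0.368 from limma). Smoc2 encodes a matricellular protein found in Lgr5-positive cells and also in stroma, and lies on chromosome 17 from 14279506 to 14404790. The controls had 51.4, 59 and 48.4 CPM and the I-KO mice 55.1, 61.3, 43.2 and 56.3 CPM. Both the highest and the lowest library were I-KO, replicates 2 and 3, and the log2 fold change was 0.02 (95% confidence interval -0.27 to 0.31).

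Prom1, which encodes the membrane glycoprotein CD133 of stem and progenitor cells, lies on chromosome 5 from 43993620 to 44102032. Its level was 83.7, 76.5 and 65.7 CPM in lox/lox and 58.3, 92.7, 66.6 and 69.1 CPM in I-KO. Here I-KO replicate 1 was the lowest library, and the highest was again I-KO replicate 2, with a log2 fold change of -0.08 (95% confidence interval -0.44 to 0.27). Rgmb, a co-receptor for bone morphogenetic proteins, lies on chromosome 17 from 15803188 to 15831039. Its level was 23.7, 26.9 and 25.5 CPM in lox/lox and 24.2, 26.5, 21.5 and 26.1 CPM in I-KO. It was the 1 gene of the 10 that was highest in a control, lox/lox replicate 2, and I-KO replicate 3 was lowest, with a log2 fold change of -0.05 (95% confidence interval -0.27 to 0.17).

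**Figure D1:**
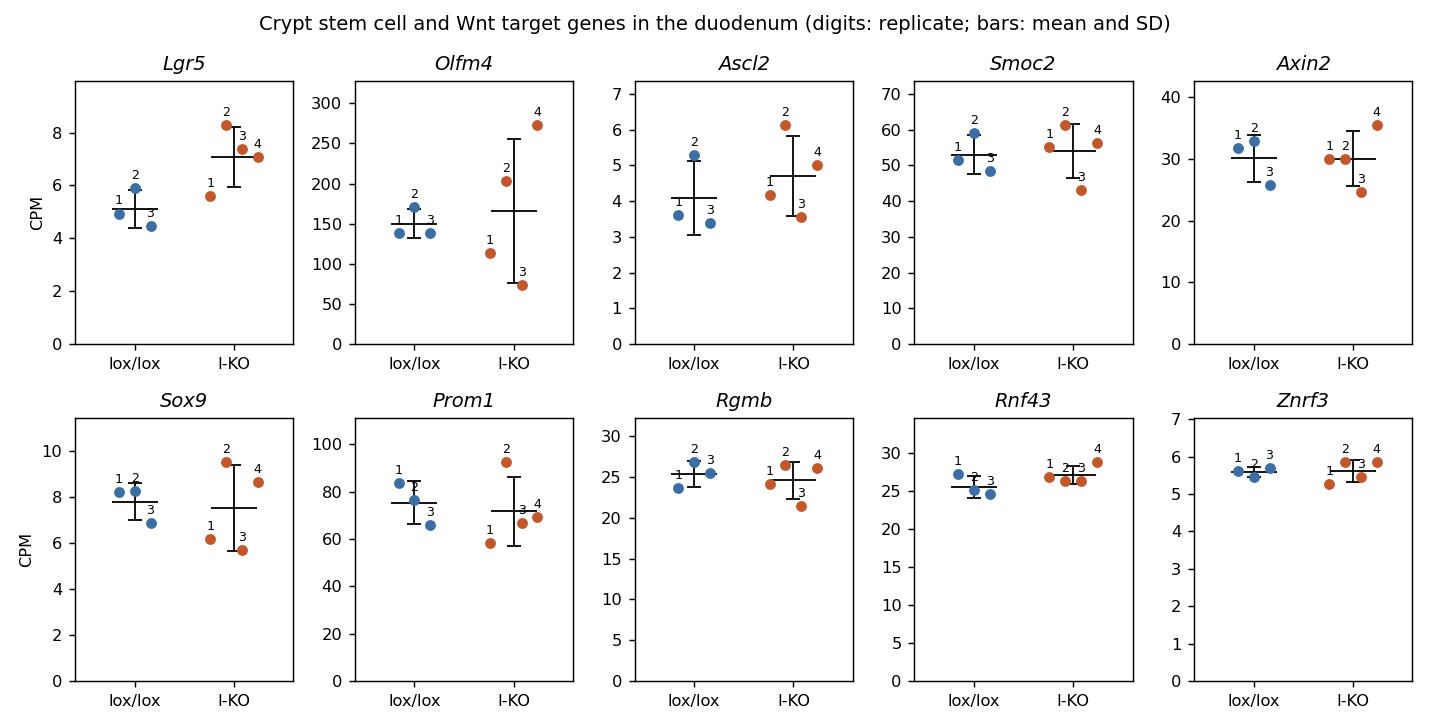
CPM of each of the 10 genes (vertical axes, each from 0) in the 3 lox/lox and 4 I-KO libraries, with the replicate number above each point and black bars for the mean and SD. The I-KO values of Olfm4 spread from 73.9 to 273 CPM around controls of 139 to 171 CPM, and Lgr5 has 3 of 4 I-KO values above every control.

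The transcription factor Sox9, a Wnt target needed for Paneth cells, lies on chromosome 11 from 112782224 to 112787760. Its level was 8.24, 8.28 and 6.88 CPM in lox/lox and 6.18, 9.55, 5.72 and 8.68 CPM in I-KO. As with Olfm4, I-KO replicates 2 and 4 were above and replicates 1 and 3 below all controls. The means of 7.8 ± 0.797 CPM (SD, n = 3) and 7.53 ± 1.87 CPM (SD, n = 4) were within this spread, with a log2 fold change of -0.07 (95% confidence interval -0.44 to 0.31, unadjusted p = 0.695 from limma).

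Axin2, Rnf43 and Znrf3 are targets of the pathway that inhibit it. Axin2, a scaffold of the β-catenin destruction complex and the usual readout of Wnt activity, lies on chromosome 11 from 108920349 to 108950783. Its level was 31.7, 32.9 and 25.8 CPM in lox/lox and 30, 29.9, 24.7 and 35.5 CPM in I-KO. The I-KO range enclosed that of the controls, and the I-KO mean was 99.7% of the lox/lox mean, with a log2 fold change of -0.01 (standard error 0.13, 95% confidence interval -0.31 to 0.29). Its exact permutation p was 1. The antisense gene Gm11670 shares 209 exon bases with Axin2, and Gm16401 shares 424 with Prom1 on the opposite strand. The kit keeps strand, but whether the counting used it is not given in the sources used here.

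Rnf43, a ligase that removes Frizzled receptors, lies on chromosome 11 from 87662722 to 87735539. Its level was 27.3, 25.1 and 24.6 CPM in lox/lox and 26.9, 26.3, 26.3 and 28.9 CPM in I-KO. Every I-KO value was above lox/lox replicates 2 and 3, and the groups overlapped through lox/lox replicate 1. Its log2 fold change was 0.08 (95% confidence interval -0.10 to 0.26, exact permutation p = 0.257). Its relative Znrf3 lies on chromosome 11 from 5276324 to 5444847 and had 5.63, 5.45 and 5.7 CPM in lox/lox and 5.27, 5.85, 5.46 and 5.87 CPM in I-KO. The libraries were close together in both groups, with a log2 fold change of 0.0033 (95% confidence interval -0.17 to 0.18). The within-group SD on the log2 scale was 0.07 for Rnf43 and 0.05 for Znrf3, and 8.45% and 3.54% of all genes tested had a smaller one. The coefficient of variation of Znrf3 was 2.31% in lox/lox and 5.28% in I-KO, below its counting error of 9.85% at the lowest library. For Rnf43 it was 5.7% and 4.46%, beside a counting error of 4.49%. The closeness of these libraries is therefore not read as a property of either gene.

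**Figure D2:**
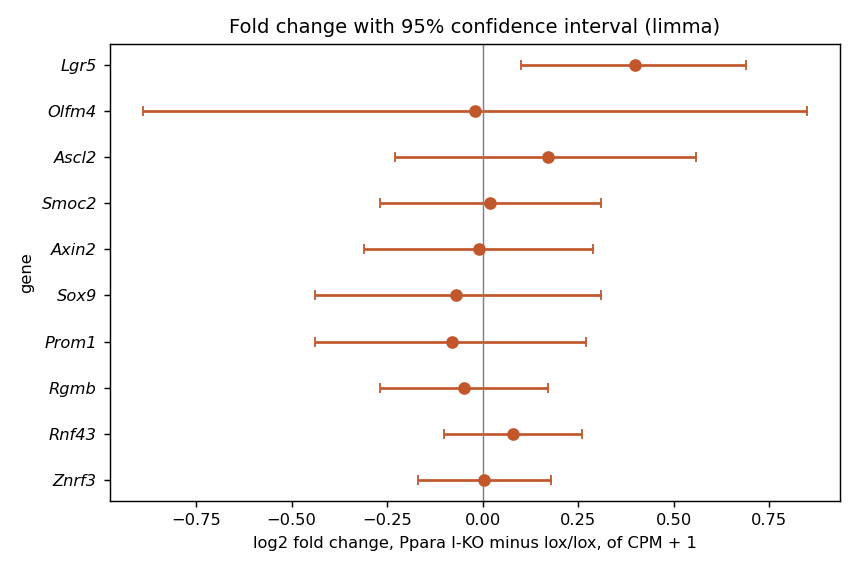
Log2 fold change of CPM + 1 (horizontal axis, Ppara I-KO minus lox/lox) for each gene, with points for the limma estimate and bars for the 95% confidence interval. The interval of Lgr5, 0.10 to 0.69, is the 1 interval that leaves out 0, and that of Olfm4 runs from -0.89 to 0.85.

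Levels of different genes were set side by side per kb of annotated exons. The order of the group means was the same in both groups. Olfm4 was highest with 50.5 ± 6.23 CPM per kb in lox/lox (SD, n = 3) and 56 ± 30.3 in I-KO (SD, n = 4). Prom1 followed with 10.5 and 9.99, Smoc2 with 7.62 and 7.77, and Axin2 with 5.47 and 5.45 CPM per kb in lox/lox and I-KO. Next were Rnf43 with 3.91 and 4.13, Rgmb with 3.31 and 3.2, Ascl2 with 2.52 and 2.9, and Sox9 with 1.89 and 1.82 CPM per kb. The lowest were Znrf3 with 0.709 and 0.711 and Lgr5 with 0.498 and 0.69 CPM per kb. Among the controls the ranges of neighbours in this order overlapped only for Rgmb and Ascl2. Among I-KO libraries they also overlapped for Prom1 and Smoc2, Smoc2 and Axin2, Ascl2 and Sox9, and Znrf3 and Lgr5. Rgmb and Ascl2 kept their order in 3 of 4 I-KO libraries, and Znrf3 and Lgr5 in 2 of 4, while both pairs kept it in 3 of 3 controls. Lengths are those of all annotated exons together, which can exceed the transcripts present.

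The spread between mice was the other feature of the 10 genes. The SD of CPM was larger in I-KO for 9 of 10, all but Rnf43, beside 66.3% of all genes tested, and with 4 mice against 3 the ranges are not of equal size. In 6 of 10 genes the I-KO range enclosed the lox/lox range, beside 35.4% of all genes tested. I-KO replicate 3 was the lowest of the 7 libraries for 5 of the 10 genes, beside 17.1% of all genes tested. I-KO replicate 2 was highest for 5 genes and I-KO replicate 4 for 4, beside 7.96% and 19.8% of all genes tested. These libraries were singled out after their values were seen.

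The same libraries stood at the ends for other genes of the crypt. I-KO replicate 3 was lowest for 13 of 25 other crypt stem cell genes, for 14 of 15 markers of proliferating cells and for 10 of 13 Paneth cell markers. I-KO replicate 2 was highest for 13 of 13 Paneth cell markers and 9 of 15 proliferation markers, and I-KO replicate 4 for 13 of 25 other stem cell genes. The proliferation gene Mki67 had 129, 158 and 140 CPM in lox/lox and 121, 165, 102 and 158 CPM in I-KO. Lyz1, the lysozyme of Paneth cells, had 1101, 1555 and 1185 CPM in lox/lox and 1009, 2002, 730 and 1643 CPM in I-KO. Both followed the order of Olfm4 among the controls in having lox/lox replicate 2 highest, and both were lowest in I-KO replicate 3.

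Markers of other cells were set beside this spread for each whole list. The summed level of 12 enterocyte markers was 62743 to 74180 CPM in lox/lox and 79013, 61618, 79961 and 65141 CPM in I-KO replicates 1 to 4, highest in I-KO replicates 1 and 3. Apoa4 and Apoa1 carried this difference for I-KO replicate 1 and most of it for I-KO replicate 3. The other 10 markers summed to 28223 to 31757 CPM in lox/lox and to 28676, 27405, 31848 and 28905 CPM in I-KO replicates 1 to 4. The sum of 15 proliferation markers was 704 to 790 CPM in lox/lox and 561 to 825 CPM in I-KO, and that of 13 Paneth cell markers was 1925 to 2526 and 1386 to 3359 CPM. The sum of 10 smooth muscle markers was 1774 to 2064 CPM in lox/lox and 1783 to 2330 CPM in I-KO, highest in I-KO replicate 1. In none of these lists was a marker at 0 in all libraries. The part of cell composition in the values of the 10 genes was not tested. I-KO replicate 3 was also the library with the fewest reads, 20741309, and I-KO replicate 2 the one with the most, 25888320.

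Lgr5 departed from this order. In I-KO replicate 3, which was lowest for Olfm4, Smoc2, Axin2, Sox9 and Rgmb, Lgr5 had 7.36 CPM, above all controls. Relative to the mean log2(CPM + 1) of the other 9 genes, Lgr5 was at -2.08, -1.96 and -2.08 in lox/lox and at -1.81, -1.64, -1.31 and -1.83 in I-KO. All I-KO values were above all lox/lox values on this scale, a description without a test, since the ratio was formed after the values were seen. On the plain scale the groups did not overlap in 6.19% of all genes tested, and the share for such ratios was not computed. The mean of the other 9 genes includes Olfm4, which was lowest in I-KO replicate 3.

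**Figure D3:**
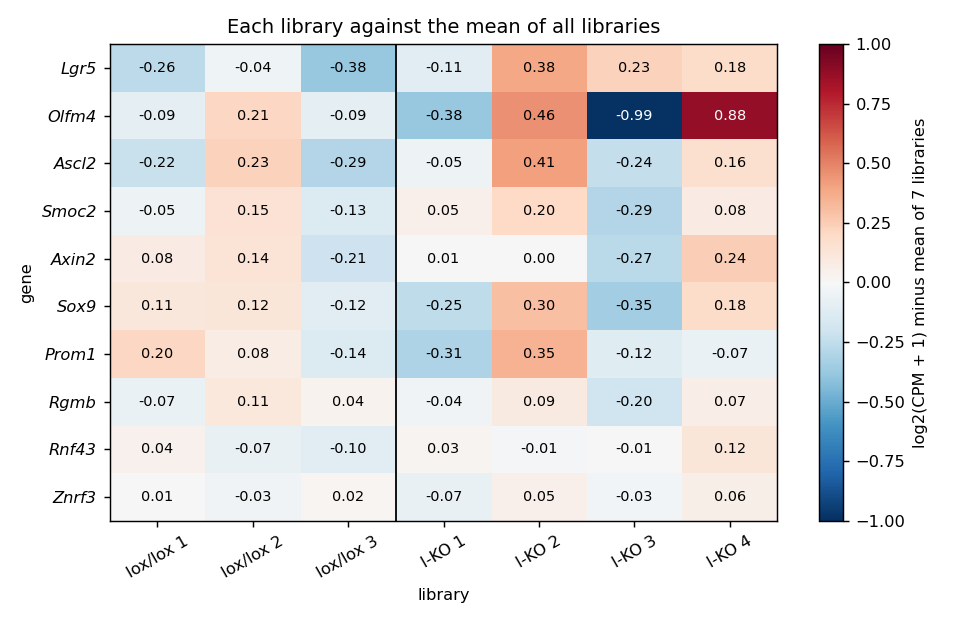
Log2(CPM + 1) of each gene (rows) in each library (columns) minus its mean over the 7 libraries, with red for above and blue for below and the value printed in each cell. I-KO replicate 3 is at -0.99 for Olfm4 and at 0.23 for Lgr5, and I-KO replicate 4 is at 0.88 for Olfm4.

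The rest of the Wnt pathway and of the stem cell signature was described from lists chosen by role, which hold 123 genes, of which 104 were in the table and 95 were tested. The ligand Wnt5b passed the filter on low values through the I-KO libraries alone and is left out of the counts, which leaves 94 genes. By limma 0 of 94 passed an adjusted p of 0.05 (smallest adjusted p = 0.791), and 3 passed an unadjusted p of 0.05, which is 3.19% beside 4.63% of all genes when such genes are left out there too. Of the 94, 47 had a higher and 47 a lower mean in I-KO, and the median of all 94 was 0.0034 (log2 fold change). The groups did not overlap in 4 genes, which is 4.26% beside 6.1% of all genes counted in this way. Neither share exceeds that of all genes.

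Of the 3 genes at an unadjusted p of 0.05, 2 were Wnt ligands, from a list with 4 ligands left after Wnt5b. That is 2 of 4, beside 4.63% of all genes counted in this way, and so short a list was not tested as a set. Wnt2b, a canonical ligand made by stromal cells, had 3.55, 4.46 and 4.87 CPM in lox/lox and 5.17, 5.81, 6.78 and 6.74 CPM in I-KO, and the groups did not overlap. Its log2 fold change was 0.43 (standard error 0.12, unadjusted p = 0.00629, adjusted p = 0.822 from limma). Wnt5a, a noncanonical ligand of the mesenchyme, had 6.91, 7.46 and 7.62 CPM in lox/lox and 10.2, 8.41, 11.6 and 8.47 CPM in I-KO, again without overlap. Its log2 fold change was 0.34 (standard error 0.12, unadjusted p = 0.0156, adjusted p = 0.954 from limma), and the unadjusted p was 0.055 without lox/lox replicate 1 and 0.0597 when the libraries were scaled on epithelial markers. Wnt5b, which is close to Wnt5a in sequence, had 0.64, 0.56 and 0.9 CPM in lox/lox and 1.01, 1.14, 1.17 and 1.2 CPM in I-KO. It is given by its values only. Wnt3, the ligand of Paneth cells, had 1.38, 1.37 and 1.06 CPM in lox/lox and 0.91, 1.77, 0.74 and 1.57 CPM in I-KO, with replicates 2 and 4 above and replicates 1 and 3 below the controls as for Olfm4.

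Markers of fibroblasts, which make stromal ligands, were read in the same libraries. The summed level of 11 fibroblast and telocyte markers was 340, 422 and 479 CPM in lox/lox and 503, 479, 458 and 477 CPM in I-KO, and 0 of the 11 were at 0 in all libraries. Of these markers 9 of 11 were higher in I-KO, beside 6784 of 13399 of all genes tested. An unadjusted p of 0.05 by limma was passed by 2 of 11, beside 4.74% of all genes tested, and 0 of 11 passed after adjustment. The most abundant, Col3a1, had 85, 109 and 129 CPM in lox/lox and 145, 138, 142 and 139 CPM in I-KO. The part of fibroblast content in the levels of Wnt2b and Wnt5a was not tested.

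The remaining gene, Ccnd1, which encodes cyclin D1 and is a Wnt target, had 49.5 to 52.2 CPM in lox/lox and 40.6 to 44.8 CPM in I-KO (log2 fold change -0.28, adjusted p = 0.791 from limma). Its I-KO libraries were close together, unlike those of Olfm4 or Sox9. Among the relatives of the 10 genes, Lgr4, a receptor for R-spondins like Lgr5, had 61.4, 58.7 and 57.2 CPM in lox/lox and 41, 55.9, 42 and 65.2 CPM in I-KO. It was lower than all controls in 3 of 4 I-KO libraries and highest in replicate 4, with a log2 fold change of -0.23 (95% confidence interval -0.59 to 0.13). Axin1, the constitutive relative of Axin2, had 50.7 to 53.8 CPM in lox/lox and 53 to 56.5 CPM in I-KO (log2 fold change 0.09, 95% confidence interval -0.08 to 0.26). The R-spondin Rspo3 had 2.37 to 2.87 CPM in lox/lox and 1.92 to 2.83 CPM in I-KO.

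By role, 0 genes passed an unadjusted p of 0.05 by limma among 11 Wnt and R-spondin receptors, 13 components of the signal relay and destruction complex, 9 of the β-catenin and TCF/LEF complex, 10 Wnt inhibitors and 25 other crypt stem cell genes. Of the signal relay and destruction complex 10 of 13 were higher in I-KO (median log2 fold change 0.04). Of the 25 other stem cell genes 10 were higher and 15 lower, with a median of -0.02. Of the 19 other Wnt targets 9 were higher and 10 lower, and Ccnd1 was the 1 that passed an unadjusted p of 0.05. Over all genes tested, 4.74% passed an unadjusted p of 0.05 by limma and 6784 of 13399 were higher in I-KO. The counts in these short lists are not read as a result about any role.

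**Figure D4:**
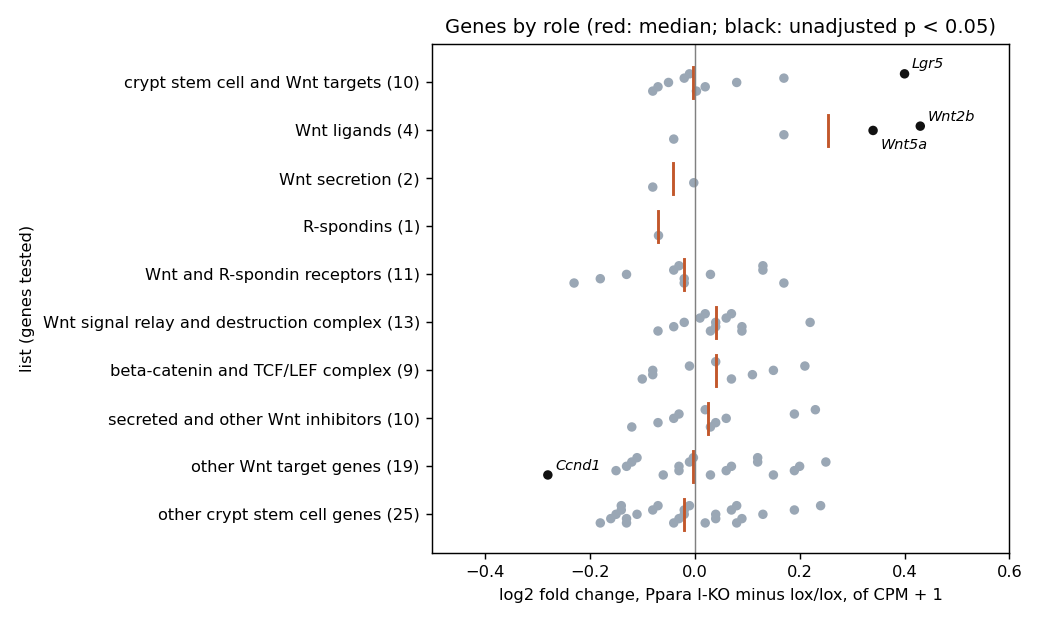
Log2 fold change of CPM + 1 (horizontal axis, Ppara I-KO minus lox/lox) of each tested gene, grouped by role (rows, with the number of genes tested), with a red line at the median of each list and black points for an unadjusted p below 0.05. Lgr5 lies at 0.40, Wnt2b at 0.43, Wnt5a at 0.34 and Ccnd1 at -0.28, and Wnt5b is not plotted.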

How the data were processed

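Duodenal RNA of 3 Ppara lox/lox and 4 Ppara I-KO mice was extracted with TRIzol, and TruSeq stranded mRNA libraries were sequenced as single reads of 100 bases on a HiSeq instrument. The submitters' processing notes name FastQC 0.11.2, TopHat2 2.0.13, Picard 1.80, HTSeq 0.6.1, edgeR and the build mm10, and no strand setting. The authors deposited normalized expression, a signal in CPM with 2 decimals for 14795 genes, whose columns sum to between 969589 and 1098618. Of its lines, 1 without a gene name was left out. The values are not counts and were tested as deposited.

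Genes with CPM above 1 in at least 3 libraries (13399, including the 10 described) were compared with limma 3.58.1 in R 4.3.3 on log2(CPM + 1), with Benjamini-Hochberg adjustment over all of them and a threshold of 0.05. The fit was tested on simulated data. Exact permutation tests used the 35 assignments of the 7 libraries. Where nothing states that libraries come from separate litters or days, p-values measure the spread between these mice only. Exon lengths and positions came from GENCODE M21 (13922 symbols matched) and promoters from RefSeq, both on GRCm38. Figures and tables used Python 3.11.15, pandas 2.3.3, scipy 1.17.1 and matplotlib 3.10.9.

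The 10 genes and the gene lists were chosen with earlier results of these data known. All 10 genes are named. Genes of the Wnt pathway, stem cell and proliferation lists are named at an unadjusted p below 0.05, relatives of the 10 genes and the highest markers of a cell type by their values. Alternatives were a pseudocount of 0.5, no filter, column totals, median-of-ratios size factors, an intensity trend, the replicate number as a block, scaling on epithelial markers and each library left out. The counts without genes that passed the filter through a single group were added after the data were seen. A planned comparison of protein sequences was not run.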

Additional observations from a re-analysis of the deposited data

Results flagged for a closer look

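Of 35 quantities examined in the 4 I-KO libraries (the 10 genes and 25 summed lists), 2 had a library set apart from the other 3 by Dixon's test, where 1.75 would be flagged if chance flagged 1 in 20. None of the 10 genes was among the 2. The summed level of 15 pancreatic acinar markers was 457 CPM in I-KO replicate 1, against 43.2, 27.2 and 35 CPM in I-KO replicates 2 to 4 and 31.3, 102 and 30 CPM in lox/lox (gap over range 0.963). All 15 of 15 were highest in I-KO replicate 1. The summed level of 5 endothelial markers was 116 CPM in I-KO replicate 1, against 92.4, 93.5 and 94.7 CPM in I-KO replicates 2 to 4 and 80.9, 90.7 and 98.9 CPM in lox/lox (gap over range 0.905). I-KO replicate 1 was lowest for 2 of the 10 genes, Prom1 and Znrf3, which is near its share of 19.3% of all genes tested. Without I-KO replicate 1 the log2 fold change of Prom1 was 0.01 and that of Lgr5 0.49. The cause was not tested.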

How the results depend on the processing

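Under 14 alternatives, 118 of 140 fold changes of the 10 genes kept their direction, and 0 of 10 genes passed an adjusted p of 0.05 in each of them by limma. Lgr5 was higher in I-KO under all 14 (log2 fold change 0.32 to 0.49, unadjusted p 0.00243 to 0.0597, adjusted p 0.628 to 1 from limma), as were Ascl2 and Rnf43. The small fold changes of Smoc2 and Znrf3 turned negative with column totals (-0.02 and -0.03) and with the replicate block (-0.0028 and -0.02). They were also negative with scaling on epithelial markers (-0.03 and -0.04). The median of all genes moved to -0.03 with column totals and to -0.05 with scaling on epithelial markers, and was 0.0018 with the block. When single libraries were left out, the log2 fold change ran from -0.31 to 0.31 for Olfm4, -0.04 to 0.12 for Smoc2, -0.11 to 0.08 for Axin2, -0.18 to 0.04 for Sox9, -0.21 to 0.01 for Prom1, -0.09 to 0.01 for Rgmb and -0.02 to 0.03 for Znrf3. The number of the 10 genes without overlap ran from 0 to 1 (Lgr5 without lox/lox replicate 2 or I-KO replicate 1, Rnf43 without lox/lox replicate 1), and the number at an unadjusted p of 0.05 from 0 to 1. Of all genes, 1 was called lower, which was Me1. The number called lower was 0 at a pseudocount of 0.5, with column totals and with the replicate block, and 0 to 2 with a library left out. The call of Me1 thus depends on the processing. The causes were not tested. Equal replicate numbers did not pair the libraries (correlation of deviations -0.0141, 0.184 and -0.00923), and with the replicate block Lgr5 was at 0.40 (p = 0.0141 from limma) and Olfm4 at -0.31. No control has the number of I-KO replicate 4, so the block takes that library out of the estimate. The fold changes with the block therefore equal those without I-KO replicate 4, and the 14 alternatives and 140 fold changes count both. Counting error limits Ascl2, Lgr5, Sox9 and Znrf3 most, with 67, 100, 108 and 103 reads in their lowest libraries.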

Other observations

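Crypt signalling outside the Wnt pathway was also read from lists chosen by role. Of 13 Notch pathway genes, 6 had a higher and 7 a lower mean in I-KO (median log2 fold change -0.01). Of 14 BMP pathway genes, 6 were higher and 8 lower, with a median of -0.03. By limma 0 of either list passed an adjusted p of 0.05, and 1 of each passed an unadjusted p of 0.05, beside 4.74% of all genes tested. They are named here after their values were seen. Notch3 had 5.68, 6.09 and 6.01 CPM in lox/lox and 9, 6.68, 7.1 and 7.15 CPM in I-KO (log2 fold change 0.29, unadjusted p = 0.0224, adjusted p = 0.954 from limma). Bmpr2 had 12.2, 11.2 and 13.7 CPM in lox/lox and 8.05, 10.9, 7.31 and 11.1 CPM in I-KO (log2 fold change -0.39, unadjusted p = 0.0292, adjusted p = 0.954 from limma). Markers of proliferating cells were lower in 12 of 15, with a median of -0.03, and those of Paneth cells in 10 of 13, with a median of -0.06, and 0 of either passed an unadjusted p of 0.05. Over all genes tested, 6615 of 13399 were lower. Of 9 enteroendocrine markers 7 were lower and 2 higher, and I-KO replicate 3 was lowest for 6 of them.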
